A study of Mus musculus with 6 samples.

Results

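Frizzled proteins are the cell-surface receptors of the Wnt ligands. The mouse genes Fzd1 to Fzd10 were chosen by name as the complete Frizzled family, which gave 10 of the 36047 genes to which transcripts were joined. A Frizzled binds the lipid of a Wnt with its extracellular cysteine-rich domain, crosses the membrane several times and passes the signal to Dishevelled inside the cell. With the co-receptors Lrp5 and Lrp6 it stabilises β-catenin, and with Ror, Ryk or polarity proteins it acts without β-catenin. In the injured heart, Frizzleds are known on cardiomyocytes, fibroblasts, endothelial cells and leukocytes. The RNA of the family shows which receptor genes the infarct expresses with and without an inhibitor of Wnt secretion. Receptor protein and Wnt secretion were not measured in these samples.

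RNA was sequenced from the separated infarct area of hearts of C57BL6 mice aged 12 weeks, taken 48 h after ischemia/reperfusion (I/R), in which a coronary artery is closed and reopened. In all, 3 mice had received LGK-974, an inhibitor of the Wnt-acylating enzyme Porcupine, and 3 had received its vehicle DMSO. All 6 mice had been through the injury, and uninjured hearts were not analysed here. Such tissue mixes surviving muscle, stroma and infiltrating leukocytes, and in bulk RNA fewer cells of a type and less RNA per cell cannot be told apart.

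Depth was 41579787 to 80398211 estimated counts per library, of which mitochondrial genes held 28.1 to 53.6%. All 12 cardiomyocyte markers checked were tested in the fit, with summed levels of 39747 to 64755 CPM (counts scaled to the library size after TMM adjustment), so the heart label was borne out by its markers. The library of DMSO replicate 1 stood apart. Of 1501 genes for olfactory, vomeronasal and taste receptors, which heart is not known to use, 99.3% had counts in it, against 60.4 to 88.5% in the other 5 libraries. Results that turn on this library are given with and without it.

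The feature all members share is the short cytoplasmic stretch Lys-Thr-X-X-X-Trp, the contact with Dishevelled just inside the membrane. An in-frame match was read in the coding sequence of 10 of 10 members, once in each. A match of the same form was present in 2.10% of the 21584 genes with a complete coding sequence. The stretch is shown because it is the part through which every Frizzled reaches Dishevelled, and because the tail behind it is of one length in Fzd1, Fzd2 and Fzd7, a subfamily to which the values below return. The coding strand is written 5′ to 3′, with the Lys-Thr and Trp codons in capitals for 9 of the members.
Fzd1, chr5:4755706-4755723: AAGACActgaattccTGG
Fzd2, chr11:102606373-102606390: AAGACActgcactcgTGG
Fzd7, chr1:59484607-59484624: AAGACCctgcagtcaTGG
Fzd4, chr7:89408241-89408258: AAAACTcttcacacgTGG
Fzd9, chr5:135249416-135249433: AAGACTtttcagactTGG
Fzd10, chr5:128602796-128602813: AAGACCctgcagtccTGG
Fzd5, chr1:64735011-64735028: AAGACTctggagtctTGG
Fzd3, chr14:65212107-65212124: AAGACAtgctttgaaTGG
Fzd6, chr15:39033949-39033966: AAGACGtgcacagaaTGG
Behind the Trp codon, 17 codons remain in each of Fzd1, Fzd2 and Fzd7, and 33 in Fzd4. Fzd10, Fzd9 and Fzd5 have 50, 54 and 55, Fzd8 has 74, and Fzd3 and Fzd6 have the longest tails, with 159 and 206.

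Close paralogs can exchange reads, and Fzd1, Fzd2 and Fzd7 are the closest in this family. The longest stretches that they share without a mismatch are shown because they are where a read could be given to the wrong receptor.
Fzd1 (chr5:4756331-4756377) and Fzd2 (chr11:102605740-102605786): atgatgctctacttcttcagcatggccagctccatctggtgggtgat
Fzd1 (chr5:4756964-4757010) and Fzd7 (chr1:59483344-59483390): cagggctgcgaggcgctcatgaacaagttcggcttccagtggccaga
Fzd2 (chr11:102606064-102606101) and Fzd7 (chr1:59484298-59484335): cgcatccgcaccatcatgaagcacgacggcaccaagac
The Fzd1 stretches are 47 bases long and the other 38, all in coding sequence. Of all 31-base words in their transcripts, 1.61% of those of Fzd1, 1.90% of those of Fzd2 and 0.777% of those of Fzd7 occur in another transcript. In every other member this share was at most 0.376%.

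All members are protein-coding in the GRCm38 annotation, and Fzd1, Fzd2, Fzd7, Fzd8, Fzd9 and Fzd10 have a single exon each. Fzd1 lies on chr5:4753839-4758035 (minus strand), Fzd2 on chr11:102604396-102608058 (plus), Fzd3 on chr14:65192449-65262463 (minus), Fzd4 on chr7:89404355-89413134 (plus) and Fzd5 on chr1:64730558-64737751 (minus). Fzd6 lies on chr15:39006034-39038188 (plus), Fzd7 on chr1:59482424-59486955 (plus), Fzd8 on chr18:9212163-9218136 (plus), Fzd9 on chr5:135248938-135251230 (minus) and Fzd10 on chr5:128600844-128604093 (plus). Exons of Fzd5 share 1233 bases with Gm38058 and exons of Fzd6 share 152 bases with Gm26704, both on the opposite strand. Whether counting used the strand is not given in the sources used here, so for these 2 genes reads of the partner cannot be told from their own.

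Fzd4 was the most abundant Frizzled of the infarct. Levels of different genes were compared as TPM, which is scaled to transcript length, and the order was Fzd4, Fzd6, Fzd1, Fzd7, Fzd2, Fzd8, Fzd5, Fzd3, Fzd9 and Fzd10. Fzd4, the receptor of Norrin and of Wnt7 in blood vessels, had a mean of 4.83 ± 1.89 TPM (SD, n = 6 libraries) and ranged from 2.58 to 7.64. It lay above Fzd6 in 6 of 6 libraries. Fzd6 had 3.14 ± 1.43 TPM and Fzd1 2.74 ± 1.34, and the first was higher in 5 of 6 libraries. Neighbours further down, from Fzd7 at 1.83 ± 0.936 through Fzd2 at 1.38 ± 1.15, Fzd8 at 1.07 ± 0.554 and Fzd5 at 0.960 ± 0.372 to Fzd3 at 0.583 ± 0.434, were in that order in 4 or 5 of 6 libraries and overlapped in their ranges. Fzd9 stayed below Fzd3 in 6 of 6 libraries, with 0.156 ± 0.0704 TPM.

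The second place of Fzd6 depended on short transcripts. Its noncoding and decay transcripts of 458 to 750 bases held 54.0 to 66.8% of its TPM but 9.42 to 17.7% of its counts. Counted per kb of exon on the TMM scale, Fzd6 fell to the fourth place, with 1.22 ± 0.148 CPM per kb, behind Fzd4 (4.82 ± 0.912), Fzd1 (2.62 ± 0.588) and Fzd7 (1.77 ± 0.423). On that scale no library of Fzd4 overlapped with any library of Fzd1. In Fzd3, a processed transcript of 426 bases held 69.5% of the TPM in DMSO replicate 1 from 13.6 counts, and none of it in 4 libraries. The other members were counted on protein-coding transcripts only.

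Against the receptor genes that heart is not known to use, Fzd4 stood high in most libraries. It exceeded 96.9 to 99.4% of those 1501 genes in 5 libraries and 81.8% in DMSO replicate 1. For Fzd1 these shares were 91.8 to 98.2% in 5 libraries and 65.4% in DMSO replicate 1. In that library Fzd2, Fzd5 and Fzd8 fell to 37.4, 47.6 and 49.1%. Fzd3 had 57.5 to 79.9% over all libraries. Fzd9, with 1.80 to 58.5%, and Fzd10, with 0 to 38.4%, lay among such genes in all libraries.

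**Figure D1:**
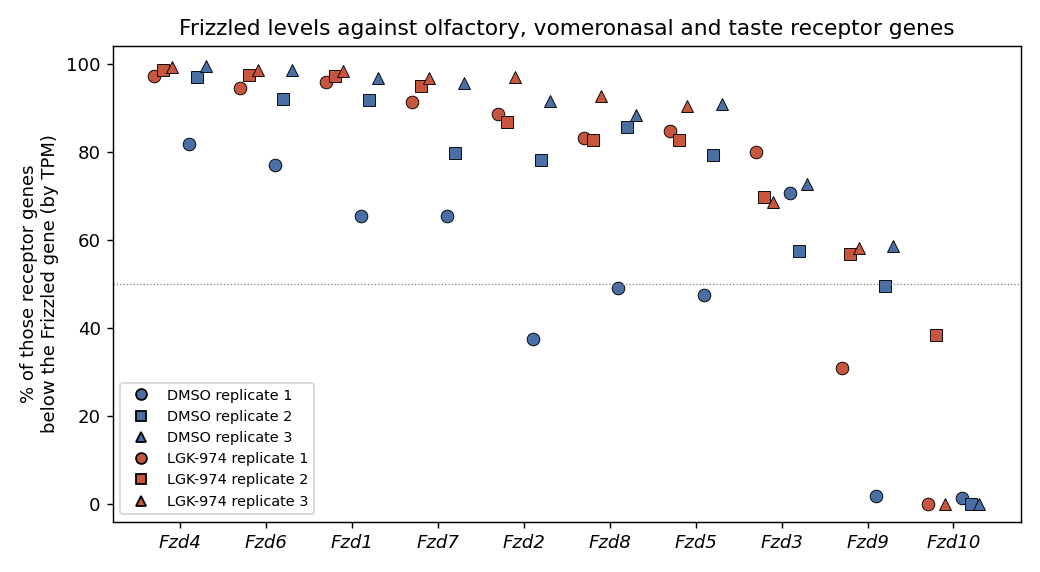
Percent of the 1501 olfactory, vomeronasal and taste receptor genes with a lower TPM than each Frizzled (vertical axis), for the 10 members in order of mean TPM (horizontal axis), with 1 point per library. DMSO replicate 1 (blue circles) is the lowest library for 8 of the members, at 81.8% for Fzd4 and 1.80% for Fzd9.

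In the pool of Frizzled mRNA, the subfamily of Fzd1, Fzd2 and Fzd7 took a larger share with LGK-974. Their share of the summed TPM was 39.4, 38.9 and 41.6% in LGK-974 replicates 1, 2 and 3 and 26.3, 28.8 and 31.5% in the DMSO replicates. The groups did not overlap. On protein-coding transcripts alone the shares were 44.3 to 47.4% with LGK-974 and 31.5 to 37.0% with DMSO. The summed level of these 3 genes was 24.9, 25.3 and 30.4 CPM with LGK-974 and 16.3, 18.3 and 25.4 CPM with DMSO, which overlap. Fzd4 alone held 25.7 to 34.7% of the summed TPM, and Fzd4 with Fzd1 36.4 to 50.3%. On protein-coding transcripts the Fzd4 share was 29.46 to 32.52% with LGK-974 and 32.54 to 38.19% with DMSO, lower by a small margin. Shares within a pool depend on each other, so a larger share need not be a higher level. The summed level of all 10 genes was 73.4 to 84.5 CPM with LGK-974 and 67.8 to 93.1 CPM with DMSO, and here too the groups overlapped. The grouping of Fzd1, Fzd2 and Fzd7 was made after the values were seen, and it has no test.

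**Figure D2:**
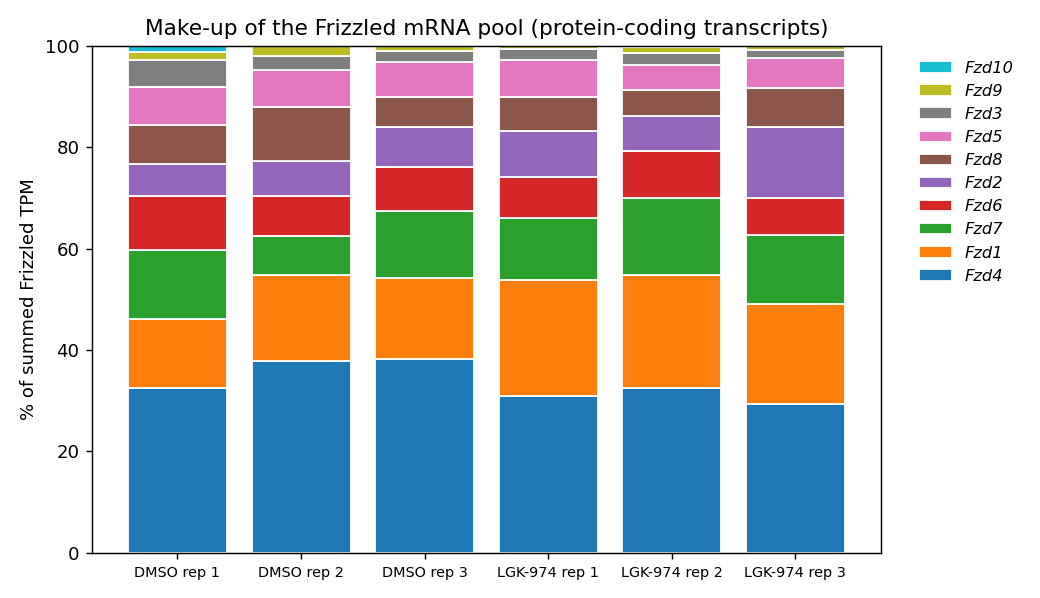
Percent of the summed Frizzled TPM of each library (vertical axis, protein-coding transcripts only) held by each member, for the 3 DMSO and the 3 LGK-974 libraries (horizontal axis). Fzd4 is the largest part of every bar (29.5 to 38.2%), and Fzd1 covers 13.5 to 17.0% of the DMSO bars and 19.7 to 22.9% of the LGK-974 bars.

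Whether LGK-974 changed the level of a Frizzled was asked in the fit over all 20094 genes with enough counts, of which 9 are Frizzleds. None passed: 0 of 9 had an adjusted p under 0.05 after Benjamini-Hochberg adjustment of edgeR's quasi-likelihood test (0% of all genes tested were called), and DESeq2 also called 0 (1.42% of its genes). At an unadjusted p under 0.05 there were 0 of 9, where 13.4% of all tested genes passed, 6.26% higher and 7.18% lower with LGK-974. The groups did not overlap in 3 of 9, which is 33.3%, where this held for 18.0% of all genes. Of these 3, 1 lay higher with LGK-974 (10.7% of all genes) and 2 lower (7.27%). The median log2 fold change of the 9 was −0.13, as was that of all tested genes. Fzd1, Fzd2 and Fzd7 had positive estimates and the other 6 negative ones.

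**Figure D3:**
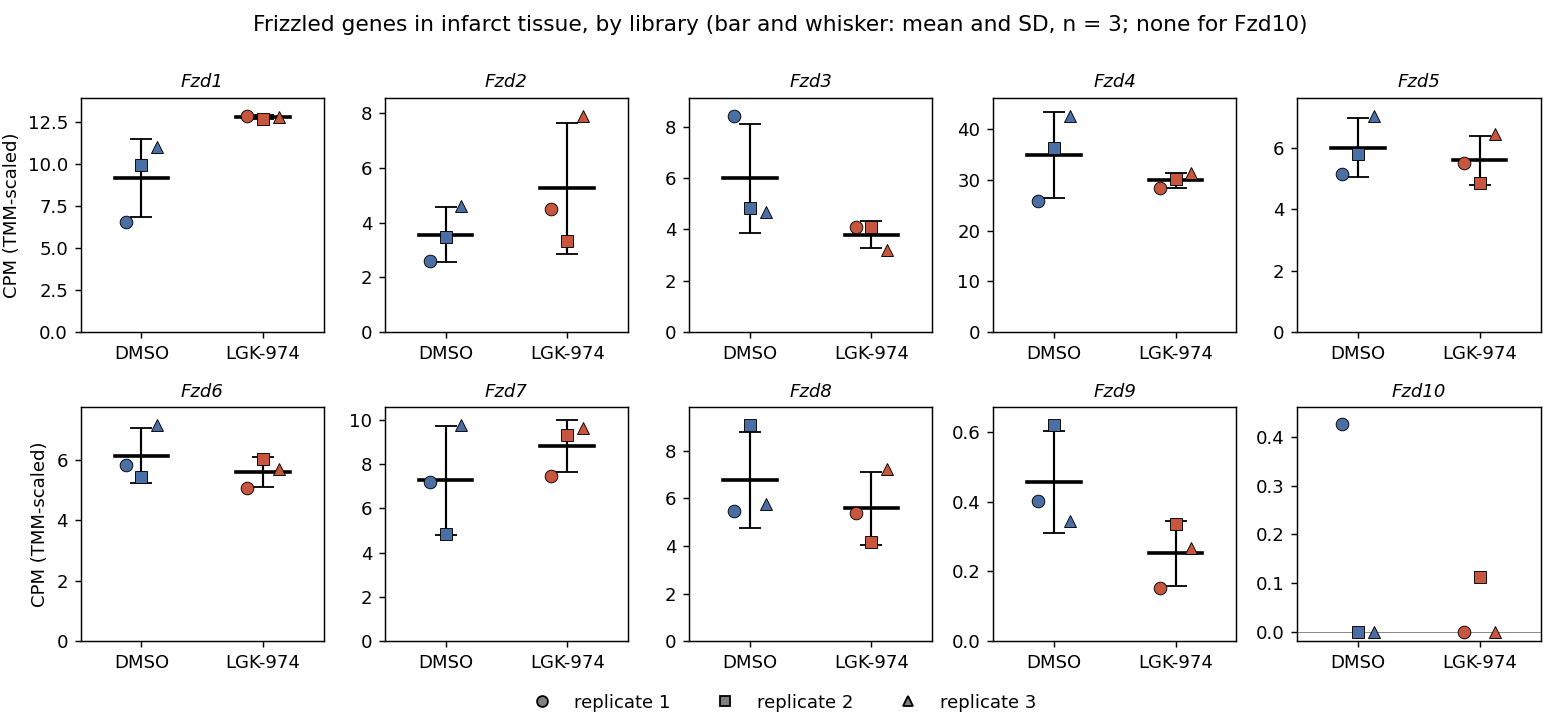
TMM-scaled CPM (vertical axis, from 0) of each Frizzled gene in each library, for DMSO (blue) and LGK-974 (red), with mean and SD of 3 libraries except for Fzd10. The LGK-974 points lie above all DMSO points for Fzd1 and below all of them for Fzd3 and Fzd9, while in the other panels the groups overlap.

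Fzd1, a receptor known for signalling through β-catenin, was measured at 12.9, 12.7 and 12.8 CPM in LGK-974 replicates 1, 2 and 3 and at 6.56, 9.97 and 11.0 CPM in the DMSO replicates. Each LGK-974 library lay above each DMSO library, and the LGK-974 libraries were almost equal, whereas the DMSO libraries were spread widely. The means were 12.8 ± 0.105 and 9.18 ± 2.33 CPM (SD, n = 3 each). The log2 fold change was 0.48 (95% interval −0.03 to 0.99, adjusted p = 0.369 in edgeR's test). Without DMSO replicate 1, its lowest library, it was 0.30.

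Fzd2, known for noncanonical signalling through Wnt5a, was at 4.51, 3.32 and 7.92 CPM with LGK-974 and at 2.59, 3.48 and 4.62 CPM with DMSO. LGK-974 replicate 3 was the highest library and the groups overlapped. The log2 fold change was 0.56 (95% interval −0.34 to 1.46, adjusted p = 0.482 in edgeR's test), and it was 0.21 without LGK-974 replicate 3, 0.39 without DMSO replicate 1 and 0.89 without DMSO replicate 3.

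Fzd7, known in stem and progenitor cells, was at 7.48, 9.31 and 9.65 CPM with LGK-974 and at 7.19, 4.86 and 9.78 CPM with DMSO. The highest and the lowest library were both DMSO libraries. Its log2 fold change of 0.28 (95% interval −0.37 to 0.92) was within the spread between libraries, with an adjusted p of 0.617 in edgeR's test. It was 0.04 without DMSO replicate 2 and 0.67 without DMSO replicate 3, where the unadjusted p was 0.0331 and the adjusted p 0.186 in edgeR's test (0.186 to 0.949 over 15 other settings).

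Fibroblast and macrophage markers had positive estimates, as these 3 receptors did, where 8130 of 20094 genes were positive. Of 10 fibroblast markers, 10 were positive and 4 had an unadjusted p under 0.05 (6.26% of all genes passed it upwards), edgeR called 0 and DESeq2 4. Their summed level was 3540 to 6048 CPM with LGK-974 against 1742 to 2560 CPM with DMSO. The largest parts of it were Col3a1 and Col1a1, with means of 1576 and 1265 CPM with LGK-974 and 717 and 580 CPM with DMSO. The 4 markers under the unadjusted threshold were the matrix genes Col1a1, Col1a2, Col3a1 and Postn. Of the rest, Tcf21 (0.59) also had groups without overlap. The groups overlapped for Pdgfra (0.13), Dcn (0.01), Ddr2 (0.21), Lum (0.49) and Dpt (0.39). Of 11 monocyte and macrophage markers, 11 were positive and 8 passed the unadjusted threshold, edgeR called 0 and DESeq2 5. Their summed level was 586 to 672 CPM with LGK-974 against 253 to 395 CPM with DMSO. No marker of either list was at 0 in all libraries, and the part of these cells in the Frizzled values was not tested.

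Fzd4 was at 28.4, 30.1 and 31.3 CPM with LGK-974 and at 25.8, 36.3 and 42.7 CPM with DMSO. The LGK-974 libraries lay within the DMSO range, whose lowest value came from DMSO replicate 1. The means of 29.9 ± 1.46 and 34.9 ± 8.54 CPM (SD, n = 3 each) gave a log2 fold change of −0.22 (95% interval −0.68 to 0.24, adjusted p = 0.575 in edgeR's test). Single DMSO libraries moved this value: it was −0.39 without DMSO replicate 1 (unadjusted p = 0.0337, adjusted p = 0.410 in edgeR's test) and 0.05 without DMSO replicate 3. Over all 15 other settings its adjusted p was 0.385 to 0.906. Of 10 endothelial markers, 0 passed an unadjusted p under 0.05 in edgeR's test. Their summed level was 589 to 661 CPM with LGK-974 and 519 to 712 CPM with DMSO.

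Fzd9 and Fzd10, the relatives of Fzd4 with the lowest levels, were close to the limit of counting. Fzd9 had 13, 18 and 17 counts with LGK-974 and 16, 30 and 14 with DMSO, or 0.153 to 0.336 against 0.344 to 0.621 CPM. The groups did not overlap by a small margin: the highest LGK-974 library, replicate 2, was at 0.336 CPM (exact 95% Poisson interval 0.199 to 0.531) and the lowest DMSO library, replicate 3, at 0.344 CPM (0.188 to 0.577). These intervals cover counting error only. Its log2 fold change was −0.86 (95% interval −2.80 to 1.09, adjusted p = 0.609 in edgeR's test). Fzd10 had 17 counts in the DMSO replicate 1 library, 6 counts in that of LGK-974 replicate 2 and 0 in the other 4 libraries, where a count of 0, with a limit set at 3 counts, allows up to 0.0353 to 0.0737 CPM. It did not reach the filter of 10 counts in 3 samples and was not tested. Its highest value also lay in DMSO replicate 1, which held counts on 99.3% of the olfactory, vomeronasal and taste receptor genes.

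Fzd5 and Fzd8 form a pair of closely related receptors. Fzd5, a receptor of Wnt5a on macrophages among other cells, was at 5.49, 4.85 and 6.44 CPM with LGK-974 and at 5.15, 5.79 and 7.05 CPM with DMSO. Fzd8 was at 5.37, 4.18 and 7.22 CPM with LGK-974 and at 5.45, 9.08 and 5.77 CPM with DMSO. Both overlapped between the groups, and the highest Fzd8 value came from DMSO replicate 2 alone. The log2 fold changes were −0.10 (95% interval −0.63 to 0.43) for Fzd5 and −0.28 (95% interval −0.97 to 0.42) for Fzd8, with adjusted p of 0.840 and 0.646 in edgeR's test. The sign for Fzd5 turned in 3 of 15 other settings and that for Fzd8 in 0 of 15, although Fzd8 was at −0.02 without DMSO replicate 2 and −0.05 without LGK-974 replicate 2.

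Fzd3 and Fzd6 are the Frizzleds of planar cell polarity. Fzd3 was at 4.11, 4.09 and 3.21 CPM with LGK-974 and at 8.44, 4.84 and 4.69 CPM with DMSO. Each LGK-974 library was below each DMSO library, but DMSO replicate 1, the library with counts on nearly all olfactory, vomeronasal and taste receptor genes, stood far above the other DMSO libraries. The log2 fold change was −0.66 (95% interval −1.36 to 0.05, adjusted p = 0.369 in edgeR's test) and became −0.31 without DMSO replicate 1. Fzd6 was at 5.05, 6.03 and 5.70 CPM with LGK-974 and at 5.83, 5.42 and 7.15 CPM with DMSO. Its groups overlapped and its log2 fold change of −0.13 (95% interval −0.63 to 0.37, adjusted p = 0.766 in edgeR's test) turned sign in 2 of 15 other settings.

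**Figure D4:**
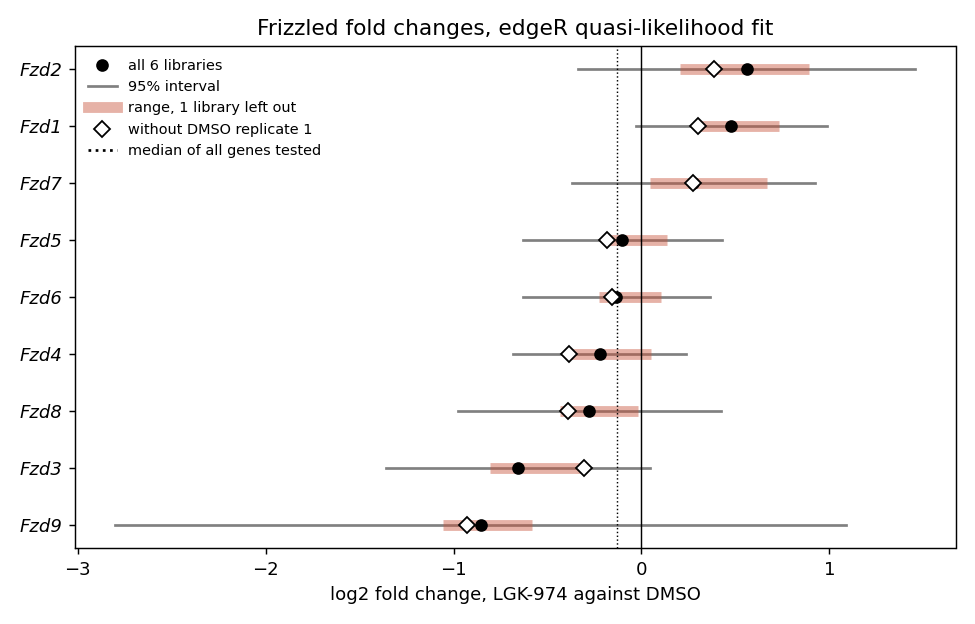
Log2 fold change between LGK-974 and DMSO (horizontal axis) for the 9 tested Frizzleds (vertical axis), with the 95% interval of the edgeR fit (grey), the range over 6 fits with 1 library left out (red band), the fit without DMSO replicate 1 (diamond) and the median of all tested genes (dotted line at −0.13). All 9 grey intervals include 0, and the diamonds for Fzd1 (0.30) and Fzd3 (−0.31) lie nearer to 0 than their points.

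Ratios between members within a library do not depend on how libraries are scaled. Fzd1 to Fzd4 was 0.742, 0.688 and 0.668 in LGK-974 replicates 1, 2 and 3 and 0.415, 0.449 and 0.421 in the DMSO replicates, computed from TPM. The ratio was higher in each LGK-974 library, with means of 0.699 ± 0.0384 and 0.428 ± 0.0179 (SD, n = 3 each), and DMSO replicate 1 did not stand apart in it. Fzd2 to Fzd4 was 0.300, 0.208 and 0.477 with LGK-974 and 0.189, 0.181 and 0.204 with DMSO, again without overlap but by a small margin. Fzd7 to Fzd4 was 0.397 to 0.466 with LGK-974 and 0.202 to 0.420 with DMSO, which overlap. Over all 36 pairs of tested members, 6 ratios did not overlap between the groups, or 16.7%. The 18.0% given above is of single genes in CPM, an unlike measure. No such share was computed for ratios of other genes. The Fzd1 to Fzd4 ratio was picked after the values were seen and is given as a description.

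**Figure D5:**
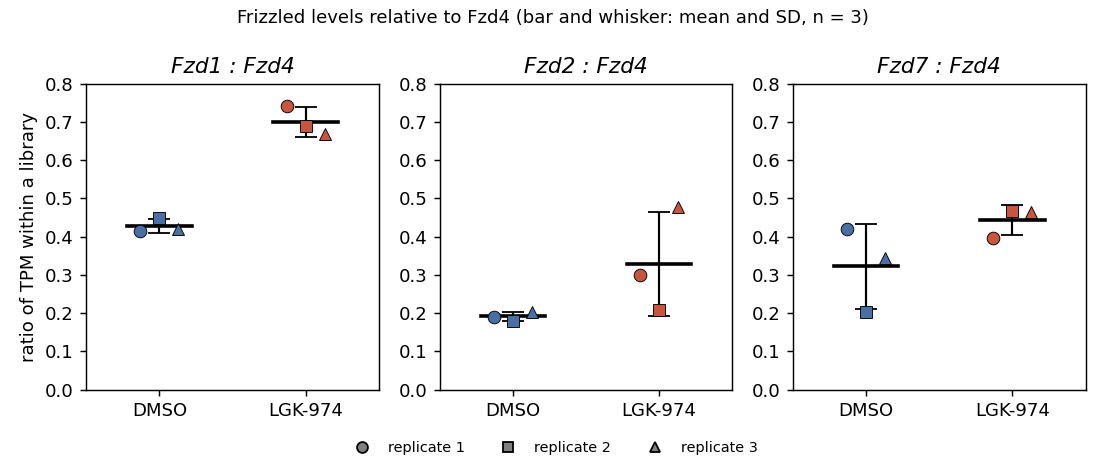
Ratio of the TPM of Fzd1, Fzd2 and Fzd7 to that of Fzd4 within each library (vertical axis, from 0), for DMSO and LGK-974 (horizontal axis), with mean and SD of 3 libraries. The Fzd1 ratio is 0.415 to 0.449 with DMSO and 0.668 to 0.742 with LGK-974, and the Fzd7 ratios overlap.

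Among co-receptors, which bind a Wnt together with a Frizzled, 0 of 6 tested genes were called. Ryk, a Wnt5a co-receptor, was at 40.3, 40.6 and 47.3 CPM with LGK-974 and at 29.2, 32.8 and 37.3 CPM with DMSO, and each LGK-974 library lay above each DMSO library. Its log2 fold change was 0.37 (standard error 0.158, unadjusted p = 0.0483, adjusted p = 0.368 in edgeR's test). Without DMSO replicate 1 it was 0.30, with an unadjusted p of 0.0893 in the same test. Lrp5, a co-receptor of the β-catenin branch, had −0.11 and the polarity co-receptor Ptk7 had 0.20, both within the spread.

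Frzb and Sfrp1 are secreted proteins with a Frizzled-like cysteine-rich domain that can bind Wnts away from the receptor. Frzb was at 13.8, 10.7 and 11.6 CPM with LGK-974 and at 5.35, 6.91 and 5.97 CPM with DMSO. Sfrp1 was at 52.6, 45.5 and 31.3 CPM with LGK-974 and at 16.6, 24.1 and 23.3 CPM with DMSO. In both genes every LGK-974 library was above every DMSO library, and log2 fold changes were 0.98 (standard error 0.197) and 1.02 (standard error 0.237). Both missed the threshold in edgeR's test (adjusted p = 0.368 each) and passed it in DESeq2, with adjusted p of 0.0323 and 0.0247. Over 15 other settings the adjusted p ranged from 0.0117 to 0.772 for Frzb and from 0.00804 to 0.772 for Sfrp1, and 2 of these settings were under the threshold in each. Of the 10 proteins of the list, edgeR called 0. At an unadjusted p under 0.05, 2 were higher (6.26% of all genes) and 1 was lower (7.18%), which was Musk, the receptor kinase of the neuromuscular junction. Musk was at 0.298 to 0.485 CPM with LGK-974 and at 2.64, 0.621 and 0.737 CPM with DMSO, and its log2 fold change went from −1.86 to −0.87 without DMSO replicate 1.

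Znrf3 and Rnf43 are ubiquitin ligases that remove Frizzleds from the cell surface, and R-spondins hold them back through Lgr4, Lgr5 and Lgr6. All 8 tested genes of this turnover list had negative estimates, where 11964 of 20094 genes did, and 0 were called. The median log2 fold change was −0.87, against −0.13 over all genes, and −0.34 without DMSO replicate 1, where 6 of 7 tested genes were negative. The summed level was 38.0 to 52.0 CPM with LGK-974 and 57.8 to 69.0 CPM with DMSO. Znrf3 itself, a target of β-catenin signalling, was at 9.09, 9.80 and 8.52 CPM with LGK-974 and at 13.4, 13.7 and 10.5 CPM with DMSO. Its groups did not overlap, and its log2 fold change of −0.46 (standard error 0.178) had an unadjusted p of 0.0342 and an adjusted p of 0.368 in edgeR's test. Without DMSO replicate 1 the value was −0.39, with an unadjusted p of 0.0597 in the same test. Lgr6 had −0.69 (unadjusted p = 0.0407 and adjusted p = 0.368 in edgeR's test) with overlapping groups. Its value was also −0.69 without DMSO replicate 1, with an unadjusted p of 0.0506 in that test. Lgr5 had −1.05, which became −0.29 without DMSO replicate 1. Rspo4 was not tested.

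Dishevelled, Dact and the polarity proteins act behind or beside the receptor, and 0 of 13 were called. Celsr2, a cadherin that works with Fzd3 and Fzd6, was at 1.76, 3.34 and 3.33 CPM with LGK-974 and at 5.53, 4.82 and 4.54 CPM with DMSO. The groups did not overlap, with a log2 fold change of −0.82 (unadjusted p = 0.0354 and adjusted p = 0.368 in edgeR's test). Without DMSO replicate 1 it was −0.73, with an unadjusted p of 0.0531 in the same test. Dact3, a Dishevelled inhibitor, had 0.56 and Prickle1 −0.54, neither with an unadjusted p under 0.05 in edgeR's test. Without DMSO replicate 1, Dact3 had 0.49 (unadjusted p = 0.106 in that test). Prickle1 then had −0.70, with an unadjusted p of 0.0199 and an adjusted p of 0.370 in that test.

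The partners of Fzd4 in vessels were called in 0 of 5 tested genes. Adgra2, which together with Reck presents Wnt7 to Frizzled, was at 22.8, 18.7 and 32.8 CPM with LGK-974 and at 13.6, 18.0 and 18.9 CPM with DMSO. The groups overlapped only by LGK-974 replicate 2 and DMSO replicate 3, and the log2 fold change was 0.56 (unadjusted p = 0.0487 and adjusted p = 0.368 in edgeR's test). Without DMSO replicate 1 this value was 0.44, with an unadjusted p of 0.0932 in the same test. Tspan12, which strengthens Norrin signalling through Fzd4, had 0.09. Ndp, which encodes Norrin, had −0.68 and turned to 0.19 without DMSO replicate 1.

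Wnt ligands carry the lipid that Porcupine attaches. Of 19 Wnt genes 13 could be tested and 0 were called. The summed level of the 19 was 16.2 to 20.4 CPM with LGK-974 and 17.8 to 31.8 CPM with DMSO. The 31.8 CPM came from DMSO replicate 1. Of the 13 tested genes 11 had negative estimates (median −0.22), which became 6 of 12 (0.0082) without that library. Wnt5b was at 1.01, 1.25 and 1.25 CPM with LGK-974 and at 0.628, 0.393 and 0.442 CPM with DMSO. Every LGK-974 library was above every DMSO library, and the log2 fold change was 1.26 (standard error 0.583, adjusted p = 0.369 in edgeR's test). Wnt16 had −1.54 and Wnt4 −0.56, and without DMSO replicate 1 these became −0.77 and −0.01.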

How the data were processed

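The sources give trizol extraction of the infarct area, depletion of ribosomal RNA and a capture-based library kit. Capture efficiency may differ between genes and so affects levels compared between genes. The authors assigned reads to transcripts of GRCm38 with Kallisto and deposited, per transcript, an estimated count (expected count, not always whole) and a TPM value, scaled to transcript length and library sum. The Kallisto version, the annotation release and the use of strand are not given in the sources used here.

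Estimated counts were summed per gene over the GENCODE annotation of the same build (98.6% of 118489 transcripts joined) and rounded. Genes needed a count of 10 or more in 3 or more libraries. They were fitted with the quasi-likelihood functions of edgeR 4.0.16 in R 4.3.3, with TMM scaling, the agent as sole factor and Benjamini-Hochberg adjustment over 20094 genes. DESeq2 1.42.0, limma-voom (limma 3.58.1), other filters and scalings, a replicate block and leaving out each library were alternatives. Gene levels are sums of the deposited TPM. Python 3.11.15, NumPy 2.4.6, pandas 2.3.3 and matplotlib 3.10.9 made the tables and plots. On simulated data in which 200 of 20094 genes differed by 2 on the log2 scale, edgeR recovered 47% of them at the fitted dispersions (4 of 98 calls false) and 95% at a dispersion of 0.05. The common dispersion fitted to these data was 0.238. Changes of the size of the Frizzled estimates (−0.86 to 0.56) were not simulated.

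Groups and replicate numbers came from the labels. The labels describe separate animals, so p-values measure the spread between these mice. With 3 against 3, an exact permutation test cannot go below 0.1. The members and lists were chosen with earlier results of these data known. Named genes were all members, up to 3 genes per companion list with the smallest unadjusted p and those needed to describe the list, and for each of the 3 members with the highest TPM the 3 genes of most similar pattern. The ratios, the grouping of Fzd1, Fzd2 and Fzd7, and the levels per kb of exon were added after seeing the data. Protein sequences were not used here.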

Additional observations from a re-analysis of the deposited data

How the results depend on the processing

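Across 15 other settings, 0 Frizzleds were called. At an unadjusted p under 0.05 there was 1 of 9 with limma-voom, where 1949 of 20094 genes passed. Without the filter there was 1 of 10, where 4790 of 34257 genes passed. There was 1 of 9 without DMSO replicate 1 and 2 of 9 without DMSO replicate 3. The share of all genes passing in these fits is not given here (13.4% in the main fit). These counts are therefore not read as a result about Frizzleds. Fzd1, Fzd2 and Fzd7 kept positive estimates in all 15. Over all genes, DESeq2 called 315 and edgeR without a filter 1206, against 0. With 1 library left out the count was 0 to 2, the 2 arising without DMSO replicate 1. The Frizzled median log2 fold change went from −0.18 to 0.10, the latter without DMSO replicate 3, where the median of all genes was 0.02. With 1 library left out, Fzd4 went from −0.39 to 0.050, Fzd5 from −0.18 to 0.14, Fzd6 from −0.23 to 0.10 and Lrp5 from −0.16 to 0.084, each turning without DMSO replicate 3 (Fzd5 also without LGK-974 replicate 2). Ptk7 went from −0.050 (without LGK-974 replicate 3) to 0.43, and Ndp from −0.96 to 0.19 (without DMSO replicate 1). Without the filter Fzd5 became 0.030, Fzd6 0.0076 and Lrp5 0.032, and with counts scaled from TPM Tspan12 became −0.24. Some list medians also turned. For Frizzled-like domain proteins (−0.08) they were 0.081 without the filter, 0.34 with at least 1 CPM in 3 samples and −0.19 to 0.20 with 1 library left out. For Dishevelled and polarity partners (−0.09) they were 0.061 without the filter and −0.20 to 0.018 with 1 library left out. For the Fzd4 partners (0.05) they were −0.041 with DESeq2, −0.37 with counts scaled from TPM and −0.0034 to 0.19 with 1 library left out. For Wnt ligands (−0.22) they were −0.57 to 0.0082 with 1 library left out. The Fzd4 share of the summed Frizzled level was 29.1% from TPM and 34.2% per kb of exon. The causes were not tested. The replicate numbers were not taken as pairs, since the labels describe separate animals. Deviations from the group means correlated at 0.47, −0.05 and 0.39 between mice numbered 1, 2 and 3. Between mice of different numbers this was −0.52 to 0.10. Deviations from a group mean cancel within the group, so positive values for some pairs of mice push those of other pairs down. The contrast is therefore partly fixed by how it was computed. Whether same-numbered mice share a batch was not tested. The replicate block gave 0 calls, 3312 genes at an unadjusted p under 0.05 (2699 in the main fit), and a Frizzled median of −0.13. Fzd10 could be fitted only with DESeq2 or without the filter. Fzd9 and Fzd10 had few counts, 13 to 30 and 0 to 17 per library. What limits the results for the other members was not tested.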

Other observations

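For the 3 most abundant Frizzleds by TPM, the genes of most similar pattern over the 6 libraries were taken from 15524 genes of at least 1 CPM, by Pearson's r of log2 CPM. These were Pcdhga10 (0.996), Naa40 (0.991) and Kansl3 (0.991) for Fzd4, Ogfod3 (0.995), Hdac4 (0.990) and Osbpl6 (0.986) for Fzd6, and Ggta1 (0.999), Cgref1 (0.998) and Ascc2 (0.998) for Fzd1. An r above 0.9 with Fzd1 was reached by 5.89% of all these genes, with Fzd4 by 1.56% and with Fzd6 by 0.683%. The 6 points share the libraries, their depth and their scaling, and the genes are the highest of many compared, so these values describe these libraries only.

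In the other marker lists edgeR's adjusted test called 0 genes, while DESeq2 called 1 cardiomyocyte marker and edgeR without the filter 1 T cell marker. At an unadjusted p under 0.05 in edgeR's test, 1 of 12 cardiomyocyte markers was higher (6.26% of all genes). Of 5 tested neutrophil markers 1 was lower (7.18% of all genes), and 0 epicardial, mural, T cell or B cell markers passed. The neutrophil marker was Cxcr2, at 50.3, 16.6 and 17.2 CPM with DMSO and 12.0 to 16.8 CPM with LGK-974. Without DMSO replicate 1, 0 neutrophil markers were lower and 1 was higher at that threshold. Cardiomyocyte markers had negative estimates in 11 of 12 (median −0.45, and −0.60 to −0.19 with 1 library left out) and epicardial markers in 5 of 6 (−0.45, and −0.62 to −0.27). T cell markers had 5 of 7 (−1.14), which became 4 of 7 (−0.18) without DMSO replicate 1. B cell markers had 4 of 6 (−0.23), which became 0 of 6 (0.36) without that library and 3 of 6 (0.02) without LGK-974 replicate 1. The medians of mural cell markers (0.09) and neutrophil markers (0.08) turned with single libraries, from −0.06 to 0.37 and from −0.29 to 0.33, and that of neutrophil markers also with DESeq2 (−0.19) and without the filter (−0.07). Their part in the Frizzled values was not tested.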
